A study of Arabidopsis thaliana with 3 samples.

Results

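The chloroplast of Arabidopsis thaliana keeps a small genome of its own, and the loci measured here are those whose code starts with ATCG, the prefix of that genome. They number 66 of the 29030 loci on the array, and 75 spots report them: 59 loci have 1 spot, 5 have 2 and 2 have 3. The deposited gene names gave symbols for 52 of the 66. The other 14 stay under their codes, 6 of them with no function annotated.

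Plastid genes encode core subunits of the photosynthetic complexes, the large subunit of Rubisco, part of the plastid ribosome and the catalytic subunits of a bacterial-type RNA polymerase. Most lie in polycistronic units, transcribed by that polymerase with nuclear-encoded sigma factors and associated proteins or by nuclear-encoded phage-type polymerases, and their RNA is then cut, edited, trimmed and protected by nuclear-encoded RNA-binding proteins. Photosystem genes lean on the bacterial-type enzyme, and several genes of the gene expression machinery can be transcribed by the phage-type enzymes. Plastid transcripts mostly lack the long poly(A) tails of nuclear mRNA.

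The study compared pfd4, a mutant of a subunit of prefoldin, with the wild type Col-0. Prefoldin is a cytosolic chaperone complex that passes newly made actin and tubulin to the chaperonin. Both genotypes were grown for 2 weeks at 22 °C in a photoperiod with 16 h light and 8 h dark and then spent 24 h at 4 °C, so every value sets the mutant against the wild type in the cold. The labels do not name the pfd4 allele or the tissue taken, and in RNA of plants fewer cells of a type and less RNA per cell cannot be told apart.

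Amplified RNA of both genotypes competed on each of 3 dual-dye arrays, called biological replicates by the labels. The pfd4 RNA carried Cy3 on arrays 1 and 2 and Hyper5 on array 3. The sources used here do not say how amplification was primed. The values are the authors' normalized ratios, read as log2 of pfd4 over Col-0, so that 1 is a 2-fold excess in pfd4. That direction is likely rather than settled, because the labels give the dyes and not the numerator. PFD4 itself had -3.08, -2.71 and -2.17 on arrays 1, 2 and 3, a mean of -2.65 ± 0.46 (SD, n = 3) or 6.29-fold lower. It was lower on all 3, also with the dyes exchanged. If the numerator was Col-0, all directions turn together. Over all loci, arrays 1 and 2 correlated at r = 0.40, arrays 1 and 3 at r = -0.27 and arrays 2 and 3 at r = -0.04.

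Many plastid transcripts stood far from equality on single arrays, and the 3 arrays did not place them on the same side. On array 1, 26 of the 66 loci were at least 2-fold higher in pfd4 (39.4%, against 1.22% of all loci) and 0 were at least 2-fold lower (0.307% of all loci). On array 2, 18 were at least 2-fold lower (27.3%, against 4.12%) and 6 at least 2-fold higher (9.09%, against 3.67%). On array 3, 7 were at least 2-fold higher (10.6%, against 0.617%) and 3 at least 2-fold lower (4.55%, against 1.47%).

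**Figure D1:**
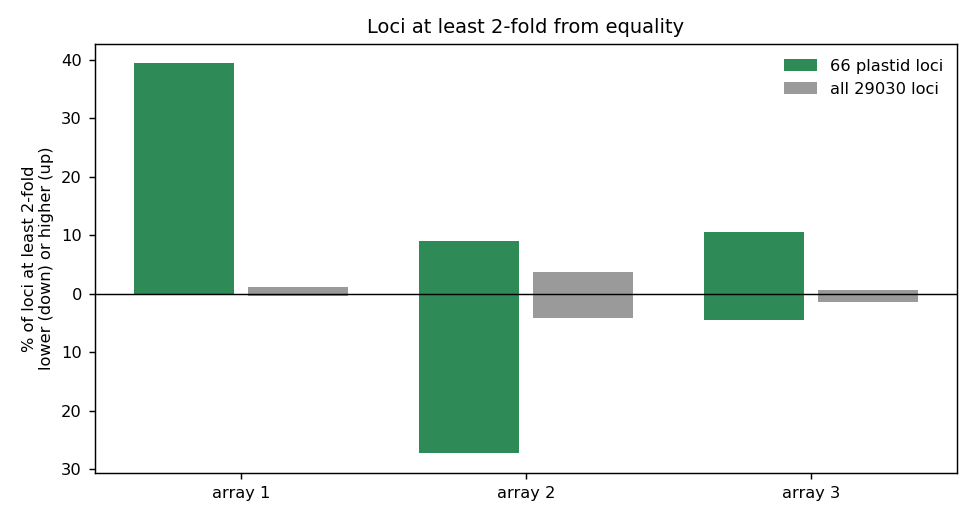
Share of loci (percent, vertical axis) at least 2-fold higher in pfd4 (upward bars) or lower (downward bars) on each array, for the 66 plastid loci (green) and all 29030 loci (grey). The plastid bars reach 39.4% upward on array 1 and 27.3% downward on array 2, where the grey bars reach 1.22% and 4.12%.

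None of the 66 passed limma's moderated test of the mean ratio against 0 with Benjamini-Hochberg adjustment over all loci (0% of all loci passed either), and the lowest adjusted p among them was 0.887. At an unadjusted p under 0.05, limma counted 7 plastid loci with means above 0 (10.6%, against 2.14% of all loci) and 6 with means below 0 (9.09%, against 2.58%). The 3 signs were the same for 22 plastid loci (33.3%, against 24.3%), 12 above 0 (18.2%, against 12.3%) and 10 below (15.2%, against 12.1%). No plastid locus is therefore said to have changed, and the values that follow are levels of the ratio with their spread.

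Median plastid ratios were 0.72, -0.23 and -0.07 on arrays 1, 2 and 3, where the medians of all loci lay between -0.01 and 0.01. The median of the 66 means was 0.19, and -0.10 without replicate 1. Ratios above 0 were held by 54, 24 and 31 of the 66 loci on the 3 arrays, against 13939, 14816 and 14565 of all 29030 loci. The spread over plastid loci had an SD of 0.99, 1.23 and 0.66, against 0.36, 0.55 and 0.37 over all loci. Plastid loci with 1 spot gave an SD of 0.98, 1.22 and 0.65 and all loci with 1 spot 0.37, 0.54 and 0.38.

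Array 1 lay above array 2 in 64 of the 66 loci (97.0%, against 47.1% of all loci), by a median of 1.36. The order of the loci was nevertheless shared by these arrays of the same dyes: across the 66 loci they correlated at Pearson r = 0.73 and Spearman rho = 0.75. Arrays 1 and 3 gave r = 0.27 and rho = 0.37, and arrays 2 and 3 gave r = 0.15 and rho = 0.12. The 66 points share their arrays, extracts and transcription units and are not independent. Over 67 loci of the mitochondrial genome the same 3 pairs gave r = -0.09, -0.39 and -0.41, and over 42 nuclear loci annotated as photosystem or light-harvesting genes 0.43, -0.60 and -0.37.

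**Figure D2:**
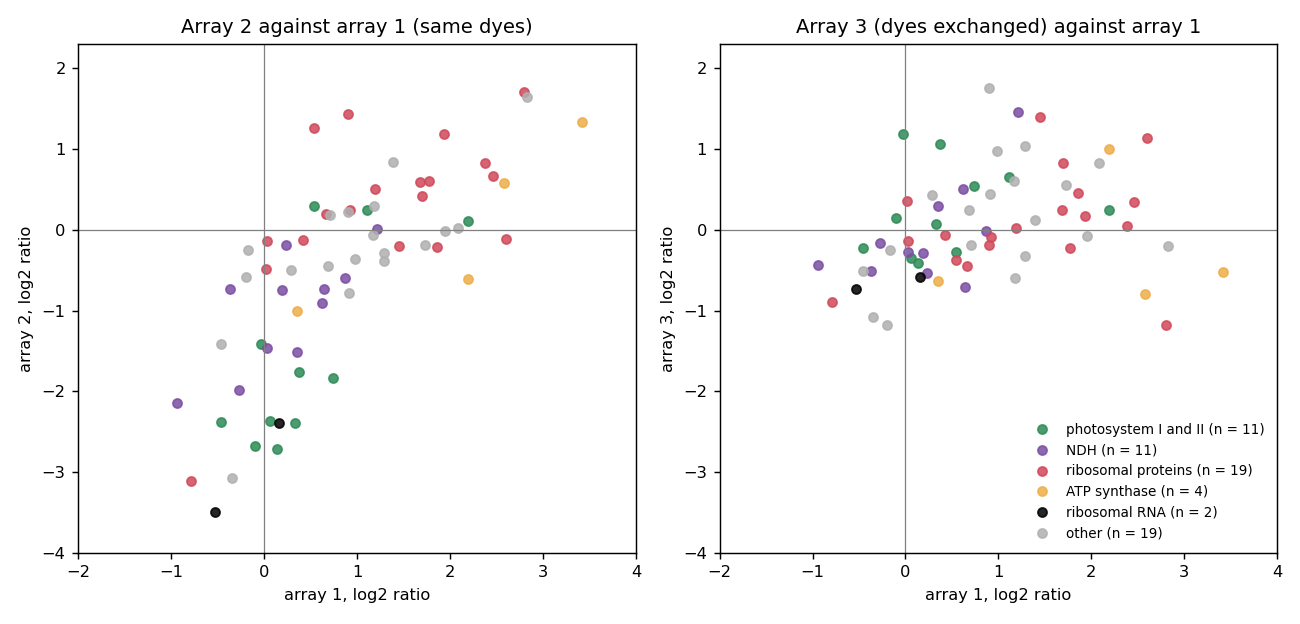
Log2 ratio of pfd4 over Col-0 of each of the 66 plastid loci on array 2 (left, vertical axis) and on array 3 (right) against array 1 (horizontal axis), coloured by class (photosystems green, NDH purple, ribosomal proteins red, ATP synthase yellow, ribosomal RNA black, others grey). On the left the points rise together (r = 0.73), with most photosystem loci and both ribosomal RNAs in the lower part; on the right they scatter (r = 0.27).

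By the median of the means, ribosomal protein and ATP synthase loci lay highest among the classes, and the ribosomal RNAs, NDH and photosystem loci lowest, but the order differed between arrays. The class medians of the means were 0.71 for 19 ribosomal proteins, 0.82 for 4 ATP synthase subunits, 0.68 for 3 cytochrome b6f subunits and 0.21 for 4 RNA polymerase subunits. They were -0.19 for 11 photosystem loci, -0.28 for 11 NDH loci and -1.26 for 2 ribosomal RNAs. The ribosomal protein median exceeded the NDH median on all 3 arrays, by 1.22, 1.17 and 0.30. It exceeded the photosystem median by 1.12 and 2.26 on arrays 1 and 2 and lay 0.12 below it on array 3 (difference -0.12). The ATP synthase median exceeded the photosystem median by 2.06 and 1.82 and the NDH median by 2.16 and 0.73 on arrays 1 and 2. On array 3 it was below both, with differences of -0.71 and -0.29. Differences between classes were described and not tested.

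**Figure D3:**
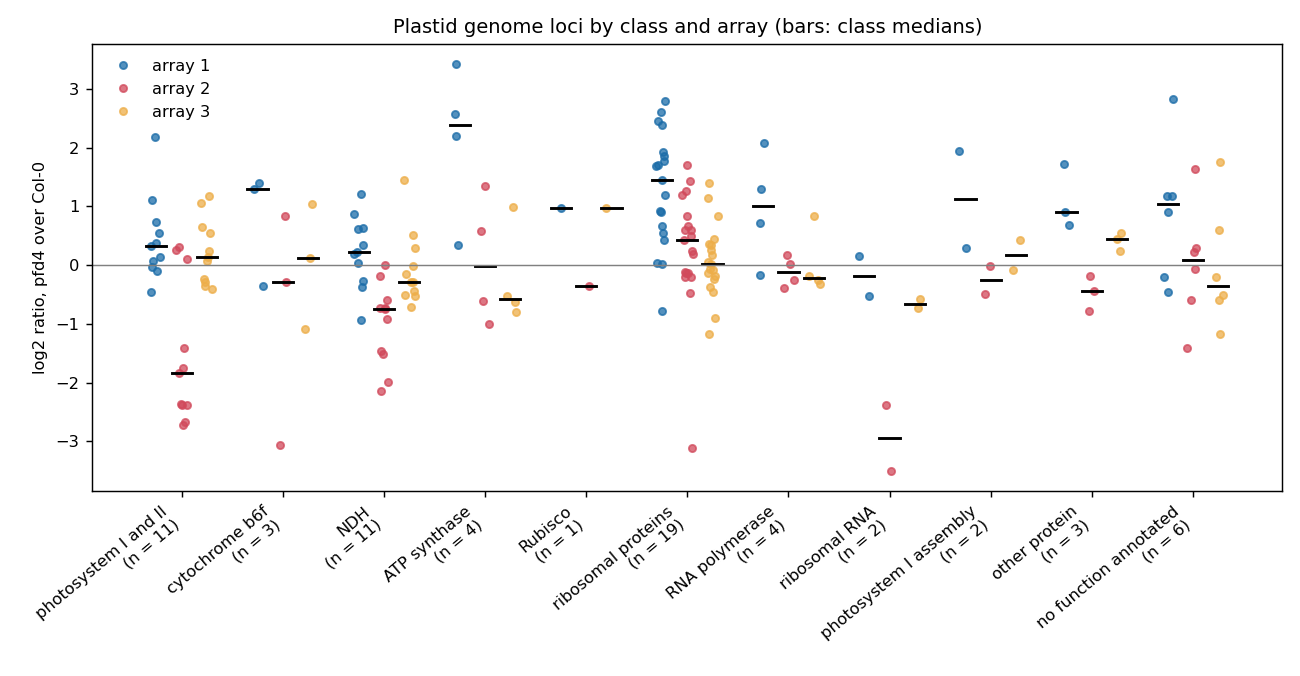
Log2 ratio of pfd4 over Col-0 (vertical axis) of every plastid locus on array 1 (blue), array 2 (red) and array 3 (yellow), by class, with class medians as black bars. Photosystem loci have medians of 0.33 and 0.14 on arrays 1 and 3 and of -1.84 on array 2; ribosomal protein loci have medians of 1.45, 0.42 and 0.02.

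The photosystems capture light and drive electron transfer, and their plastid loci were mostly far lower on array 2 alone. Of the 11 loci, 8 were at least 2-fold lower there (4.12% of all loci), while the class medians were 0.33, -1.84 and 0.14. psbC, a core antenna protein of photosystem II, had 0.14, -2.72 and -0.41 (mean -0.997 ± 1.52, SD, n = 3), and its neighbour psbD, a reaction centre protein, had -0.10, -2.68 and 0.14 (-0.88 ± 1.56). Both were far lower on array 2 than on arrays 1 and 3. psbA, the reaction centre protein that is replaced most often after light damage, had 0.74, -1.84 and 0.54 (-0.19 ± 1.44), with array 2 on the other side of 0 from the rest. Its 2 spots were alike, at -2.08 and -1.60 on array 2.

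In photosystem I, psaA, a reaction centre protein, had 0.06, -2.37 and -0.35 (-0.89 ± 1.30) over 3 spots, all of which were lowest on array 2. psaC, the subunit that holds the terminal iron-sulfur clusters, had -0.46, -2.38 and -0.23 (-1.02 ± 1.18), below 0 on all 3 arrays and the lowest mean of the class. psbH, a small phosphoprotein of photosystem II, went the other way with 1.11, 0.25 and 0.65 (0.67 ± 0.43). It was above 0 on all 3 arrays (unadjusted p = 0.022 in limma, adjusted p = 0.887). ATCG00340, annotated as a photosystem protein without settling which photosystem, had 2.19, 0.11 and 0.24 and the highest mean, 0.85 ± 1.17. The remaining loci were psbB, another core antenna protein (-0.66), the small subunits psbZ (-0.11) and psbK (-0.09), and ATCG00580, a cytochrome b559 subunit (0.19). Of the assembly factors of photosystem I, ATCG00360 had a mean of 0.62 and ATCG00520 of 0.07.

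The cytochrome b6f complex passes electrons between the photosystems, and its 3 loci did not lie together. petB, cytochrome b6, had 1.39, 0.84 and 0.12 (0.78 ± 0.64), above 0 on all 3 arrays. petD, subunit IV of the complex, had -0.35, -3.07 and -1.08 (-1.50 ± 1.41), below 0 on all 3. petA, cytochrome f, had 1.29, -0.29 and 1.04 (0.68 ± 0.85). The class median of 0.68 became -0.01 once array 3 was taken with the opposite sign.

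The NDH complex returns electrons from ferredoxin to the plastoquinone pool. Of its 11 loci, 8 lay above 0 on array 1, while 10 lay below 0 on array 2 and 8 below 0 on array 3. Of all 29030 loci, 13939, 13813 and 14068 did so. The class medians were 0.23, -0.75 and -0.28. Below 0 were 8 of the 11 means, against 14077 of the 29030 means of all loci. The median of the 11 means, -0.28, was -0.05 without replicate 2 and -0.61 without replicate 1. ndhB, a membrane subunit, had -0.94, -2.15 and -0.44 (-1.18 ± 0.88), the lowest mean and below 0 on all 3 arrays (unadjusted p = 0.023). ndhH, a subunit of the arm outside the membrane, had -0.37, -0.73 and -0.51 (-0.54 ± 0.18), the tightest of the class and the smallest unadjusted p of the 66 loci (0.012, adjusted p = 0.887). ndhC, another membrane subunit, stood apart with 1.22, 0.01 and 1.46 (0.89 ± 0.78), and its 2 spots differed in sign on array 2, at -0.54 and 0.55. The other 8 loci, the subunits ndhA, ndhE, ndhG, ndhJ, ndhK and 3 annotated without a letter, had means from -0.81 for ndhG to 0.09 for ndhJ.

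ATP synthase uses the proton gradient to make ATP. Of its 4 loci, 3 were at least 2-fold higher on array 1 (1.22% of all loci). On array 3, 3 of 4 were below 0, against 14068 of all 29030 loci. atpE, the epsilon subunit, had 3.42, 1.34 and -0.52 (1.41 ± 1.97), and its value on array 1 was the highest of all 29030 loci there. atpA, the alpha subunit, followed the same order at 2.58, 0.58 and -0.80 (0.79 ± 1.70). atpB, the beta subunit, had 2.20, -0.61 and 0.99 (0.86 ± 1.41), so array 2 was its lowest. atpF, in the stalk that joins the parts of the enzyme, had 0.35, -1.01 and -0.63 (-0.43 ± 0.70). The class median was 0.04 without replicate 1, in place of 0.82. rbcL, the large subunit of the carbon-fixing enzyme Rubisco, had 0.98, -0.36 and 0.97 (0.53 ± 0.77), with array 2 again on the other side of 0.

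Ribosomal protein loci, the largest class, had 16 of 19 means above 0, against 14851 of the 29030 means of all loci. These were 8 of 8 in the large subunit and 8 of 11 in the small. On array 1, 11 of 19 were at least 2-fold higher (1.22% of all loci), on array 2, 4 (3.67%) and on array 3, 2 (0.617%). rps7, of the small subunit, had 1.70, 0.42 and 0.83 (0.98 ± 0.65), and was the member of the class with the smallest unadjusted p (0.017). rpl32 had 1.93, 1.19 and 0.17 (1.10 ± 0.88) and rpl16 had 2.46, 0.67 and 0.34 (1.16 ± 1.14), both of the large subunit. These 3 loci were above 0 on every array.

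The highest mean of the class was that of rps12, a small-subunit protein at the decoding centre, with 2.60, -0.12 and 1.14 (1.21 ± 1.36). rps18 had 2.80, 1.71 and -1.18 (1.11 ± 2.06), the widest spread of the class, with array 3 opposite to the others. rps14 was the exception among ribosomal proteins at -0.79, -3.11 and -0.90 (-1.60 ± 1.31), below 0 on all 3 arrays and the lowest mean of all 66 loci. rps15 had a mean of -0.08. Other loci above 0 on all 3 arrays were rps16 (0.84), rpl14 (1.09) and ATCG00820 (0.57), and the means of rpl2, rpl20, rpl22, rpl23, rpl33, rps3 and rps4 ran from 0.08 for rpl20 to 0.88 for rps4.

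The ribosomal RNAs form the body of the plastid ribosome. Their 2 loci had means below 0, opposite to most of its proteins. rrn23S had -0.53, -3.50 and -0.73 (-1.59 ± 1.66), below 0 on every array and the lowest plastid value on array 2. rrn16S had 0.16, -2.39 and -0.58 (-0.94 ± 1.31). Without replicate 2 the median of the pair was -0.42 in place of -1.26. Each of these loci had 1 spot. Further spots without a locus code had means of -1.39 for 16S rRNA, and of -0.29 and -0.02 for 23S rRNA.

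The 4 subunits of the plastid-encoded RNA polymerase had means from -0.22 to 0.98. rpoC2, one of the large catalytic subunits, had 2.08, 0.02 and 0.83 (0.98 ± 1.04), above 0 on all 3 arrays. rpoB, the beta subunit, had -0.17, -0.25 and -0.25 (-0.22 ± 0.05), below 0 on all 3 and the smallest SD among the 66 loci. rpoC1, another of the large subunits, had 1.29, -0.39 and -0.32 (0.19 ± 0.95). rpoA, the alpha subunit on which the enzyme assembles, had 0.71, 0.18 and -0.19 (0.23 ± 0.45). The class median of 0.21 was -0.13 without replicate 1.

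Of the remaining proteins, accD, a subunit of the acetyl-CoA carboxylase of fatty acid synthesis, had 1.73, -0.19 and 0.55 (0.70 ± 0.97). clpP, the catalytic subunit of a protease, had 0.91, -0.78 and 0.44 (0.19 ± 0.87). matK, a maturase for intron splicing, had 0.69, -0.45 and 0.24 (0.16 ± 0.57). All 3 had the same order of arrays, with array 2 the only one below 0. For matK this held for the average of 3 spots, which differed in sign on array 2.

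The 6 loci whose deposited gene names gave no function, which does not mean that none is known, ran from -0.80 to 1.42. ATCG01130 had 2.82, 1.65 and -0.20 (1.42 ± 1.53), the highest mean of all plastid loci, and ATCG01040 had 0.90, 0.22 and 1.76 (0.96 ± 0.77). ATCG00860 at -0.46, -1.42 and -0.51 (-0.80 ± 0.54) and ATCG00870 at -0.20, -0.59 and -1.18 (-0.66 ± 0.49) were below 0 on all 3 arrays. ATCG00530 and ATCG01000 had means of 0.57 and 0.29.

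Genes of a transcription unit can be transcribed together, and 11 textbook units had at least 2 measured members, 38 genes in all. The median absolute difference between mean ratios was 0.50 for 68 pairs within a unit and 0.91 for 635 pairs from different units. In the unit from ndhH to ndhD, the 5 measured genes ndhH, ndhA, ndhG, ndhE and psaC all had means below 0, from -1.02 to -0.16. psaA and rps14, the 2 genes assigned to the unit psaA-psaB-rps14, were also both low, and no locus was matched to psaB by symbol. ATCG00340, whose code falls between theirs, had a mean of 0.85 and was not assigned to a unit here. It is therefore not shown that this unit was low throughout. In the ribosomal protein unit from rpl23 to rpoA, the means of rpoA, rpl22, rpl23, rpl2, rps3, rpl14 and rpl16 were all above 0, from 0.23 for rpoA to 1.16 for rpl16.

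Other units held both high and low genes. In the psbB unit the means ran from petD at -1.50 through psbB at -0.66 and psbH at 0.67 to petB at 0.78, a range of 2.28. petB and petD, which are neighbours, stood 3.91 apart on array 2. In the unit of rps12, rps7 and ndhB the range was 2.38, with ndhB at the bottom. In the rpoB unit it was 1.20, from rpoB at -0.22 to rpoC2 at 0.98.

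**Figure D4:**
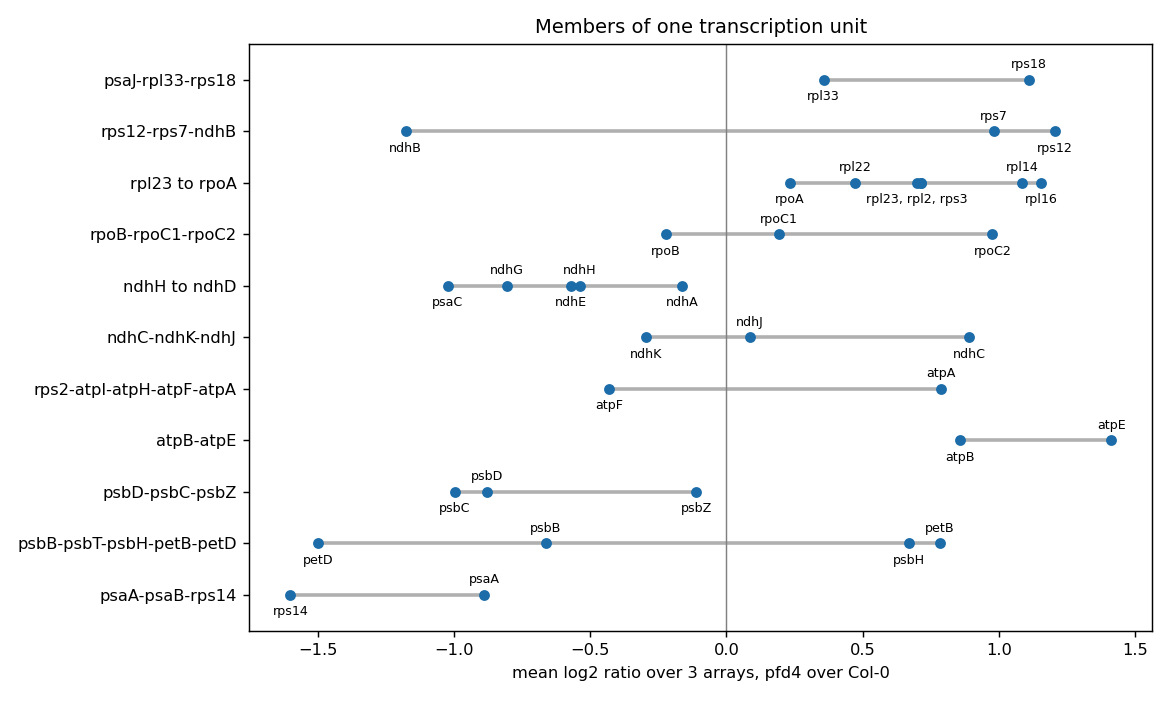
Mean log2 ratio of pfd4 over Col-0 over 3 arrays (horizontal axis) of genes of 11 plastid transcription units (rows), each point a gene and each grey line the range of the genes drawn. The unit from ndhH to ndhD lies wholly below 0, while the psbB unit and the unit of rps12, rps7 and ndhB span 2.28 and 2.38.

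Spots of one plastid locus could also disagree. The 3 spots of matK read -2.56, 1.08 and 0.14 on array 2. Over the 7 plastid loci with several spots the pooled SD within a locus was 0.45, 1.10 and 0.57 on the 3 arrays, against 0.36, 0.38 and 0.34 over 7366 loci. Probe sequences were not used here, so it was not tested which part of a transcript each spot reads. For ndhB, rps12, rps7, rpl2 and rpl23 the RefSeq gene table (assembly TAIR10.1) lists 2 plastid copies, whose RNA the spots cannot be taken to tell apart. Copies were counted by symbol only, so a second copy of other loci, the ribosomal RNAs and loci left under codes included, was not excluded. Copies of plastid DNA elsewhere in the cell were not examined.

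Nuclear genes that act on plastid RNA mostly had means above 0. Of 33 such genes, 28 means were above 0, against 14851 of the 29030 means of all loci. On all 3 arrays 8 genes were above 0 (12.3% of all loci). The medians of the 33 genes were 0.24, 0.84 and -0.01 on the arrays. On array 3 only 16 were above 0, against 14565 of all 29030 loci. None passed the adjusted test in limma, and 2 had an unadjusted p under 0.05 (4.73% of all loci). These were PTAC14, a protein attached to the plastid-encoded polymerase, at 0.30, 1.08 and 0.27 (0.55 ± 0.46, unadjusted p = 0.0494), and CP31B, an RNA-binding protein of the chloroplast, at 0.16, 1.14 and 0.71 (0.67 ± 0.49, unadjusted p = 0.0306). Both were highest on array 2, where the photosystem loci were lowest.

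The 13 genes for polymerase-associated proteins had medians of 0.30, 1.17 and -0.14. All 13 were above 0 on array 2, against 14816 of all 29030 loci, and 9 were at least 2-fold higher there (3.67% of all loci). The 6 sigma factors, which direct the polymerase to promoters, had medians of 0.46, 0.86 and -0.12, and the 2 phage-type polymerases 0.32, 0.50 and 0.21. The 5 RNA-binding proteins had -0.06, 0.38 and 0.41, and the 7 enzymes of RNA processing and decay 0.13, 0.74 and -0.03.

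Other groups bearing on organelles or tissue had smaller SDs over loci than the plastid loci on each array. The 67 mitochondrial loci had medians of 0.05, -0.23 and -0.01 with an SD over loci of 0.44, 0.44 and 0.36. The 42 nuclear photosystem and light-harvesting loci had medians of -0.21, -0.35 and 0.32 and an SD of 0.29, 0.76 and 0.32. On array 2, 10 of these 42 were at least 2-fold lower (23.8%, against 4.12% of all loci and 27.3% of plastid loci), so low values on that array were not held by plastid loci alone. For 8 root markers the medians were 0.18, -0.19 and 0.26, and their ratios ranged from -0.18 to 1.11 on array 1, -1.53 to 0.23 on array 2 and -0.18 to 0.82 on array 3. None of the 8 had an unadjusted p under 0.05 in limma. The part of tissue makeup in the plastid values was not tested.

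**Figure D5:**
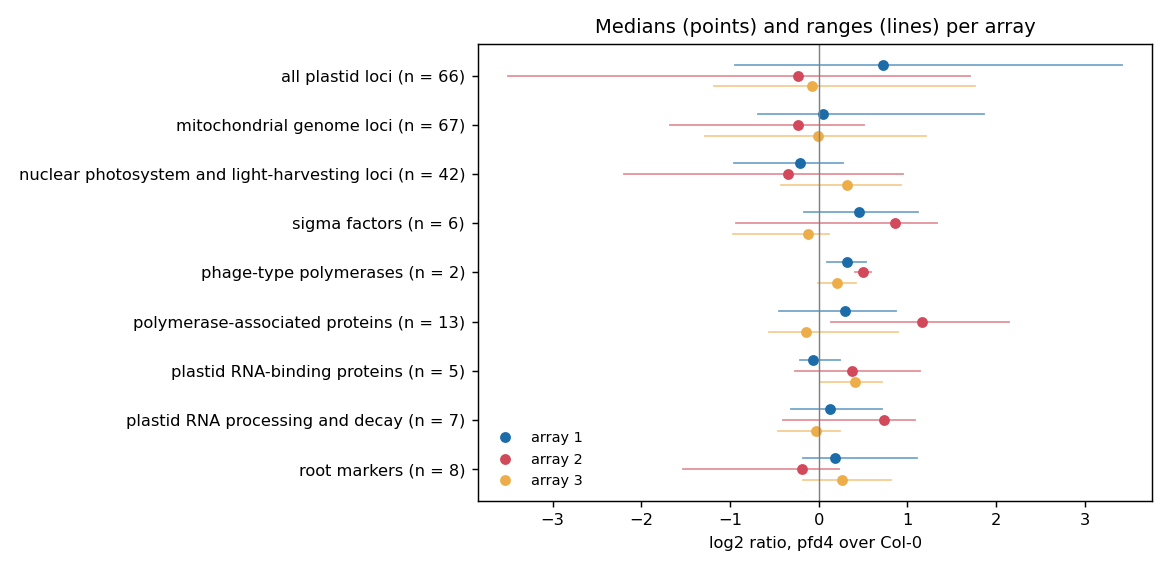
Median (points) and range (lines) of the log2 ratio of pfd4 over Col-0 on array 1 (blue), array 2 (red) and array 3 (yellow) for the plastid loci and for groups of nuclear and mitochondrial loci. The plastid ranges are the widest drawn, from -3.50 on array 2 to 3.42 on array 1; the polymerase-associated proteins have their highest median, 1.17, on array 2.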

How the data were processed

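RNA of pfd4 and Col-0 was compared on 3 arrays, each holding both genotypes. Each spot has a deposited log2 ratio that the authors had normalized. They used limma, per the submitters' processing notes. The sources used here do not give its version, background correction or normalization. Base 2 was assumed, as limma writes log2. The 45220 spots had equal values in both deposited tables. No intensities were used, so signal over background is unknown and no dim spot was removed. The number of arrays limits the precision.

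The 38613 spots with a locus code were averaged per locus and array, which gave 29030 loci. Each locus was tested with limma 3.58.1 in R 4.3.3 (lmFit, eBayes, mean ratio against 0, two-sided), adjusted by Benjamini-Hochberg over all loci at 0.05, with 2 residual degrees of freedom and 2.68 from the prior. Errors are SDs over arrays. The code was checked on simulated data. Tables were made with pandas 2.3.3 and numpy 2.4.6.

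Plastid loci were classed by their deposited gene names, and all 52 symbols were found among plastid genes of the RefSeq table. Named in full were, per class, the members with the highest and lowest means and those of the smallest unadjusted p with 1 sign on all arrays, all polymerase subunits, rbcL and genes of the units described; psbA, petA, rps18, clpP and other members beside these complete their class. Some ribosomal protein loci count in their class but are not reported individually here. Nuclear partners were named where their unadjusted p was under 0.05. The members and lists were chosen with earlier results of these data known. Classes and units were described by counts and medians without a test. Alternatives left out each array, turned array 3, added a dye term, weighted or rescaled arrays, changed the use of spots, centred arrays and used the other table.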

Additional observations from a re-analysis of the deposited data

Results flagged for a closer look

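Outside the 66 loci, 7 spots carry no locus code but are annotated to plastid genes, and 4 of them lay beyond the range of means of 757 dark and negative control spots, -0.25 to 0.33. They were picked out because their mean ratios lay outside that range and no class median, count or test above included them. Signal over background is unknown for these spots. The spot for tRNA-Ala, whose gene lies between those of the 16S and 23S rRNAs, had log2 ratios of -0.62, -4.65 and -1.52 on arrays 1, 2 and 3 (mean -2.26 ± 2.12, SD, n = 3). The spot for 16S rRNA had -0.37, -2.71 and -1.10 (mean -1.39 ± 1.20). Both were below 0 on all 3 arrays and lowest on array 2, as was rrn23S. A spot for 23S rRNA had 0.29, -0.77 and -0.40 (mean -0.29 ± 0.54), and the spot for psaI, a small subunit of photosystem I, had 1.99, 0.15 and 0.69 (mean 0.94 ± 0.95). The other 3 spots, for 23S rRNA, psaC and psbJ, had means of -0.02, -0.21 and -0.14. The psaC spot read -0.08 on array 2, where the psaC locus read -2.38.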

How the results depend on the processing

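No locus passed limma's adjusted test under any of the alternatives run. At an unadjusted p under 0.05 the count of plastid loci was 13 in the reported fit, 7, 21 and 19 without replicate 1, 2 and 3, 11 with array 3 turned, 12 with a dye term and 18 with array weights. In the same order, the counts among all 29030 loci were 1372, 1103, 476, 3724, 3878, 1327 and 1781. The plastid median of 0.19 ranged from -0.10 to 0.45 as each array was left out. Of the 66 means, 12, 7 and 3 changed sign without replicate 1, 2 and 3, 13 with array 3 turned, 4 with a dye term, 1 with the first spot of each locus (matK, -1.13 in place of 0.16) and 0 with array weights, rescaled arrays, centring or the median of spots. Of the 7 class medians, the RNA polymerase median turned to -0.13 without replicate 1, the photosystem median to 0.20 without replicate 2 and the cytochrome b6f median to -0.01 with array 3 turned, and the ribosomal protein median stayed between 0.27 and 0.90 as each array was left out; the cause was not tested. The test was already paired, because each ratio sets both genotypes against each other on its array, and with 1 group no further pairing was made. With 3 arrays and no intensities, the reliability of a single spot is unknown.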
